A study of Mus musculus with 2 samples.

Results

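The junctions described here are spliced gaps in reads whose 2 ends lie in different annotated genes on 1 strand. They come from polyadenylated RNA of C57BL/6J mouse embryos, from central nervous system tissue taken at 11.5 days with male and female embryos pooled. The 2 libraries are labelled biological replicates 1 and 2 of mixed-sex littermates and form 1 group, so there is no contrast between conditions and no test was run. The deposited mm9 list gives each junction a pair of read counts, the first and the second value below, and no label ties either value to a library. A junction was a member when it carried A=0 in its name, taken here to mean not annotated, and had at least 5 reads in each value. Its ends also had to lie in spans of different same-strand genes of the Ensembl 65 mm9 table and in no common gene. Of 1270088 listed junctions, 28937 had A=0 and at least 5 reads in each value, and 1216 of these joined 2 genes, a share of 4.20%. The others were 22221 inside 1 gene, 1694 with 1 end in a gene and 3806 with no end in a gene. Because members were chosen by their read counts, flag and positions, these are descriptions and support nothing.

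A splice junction removes an intron by joining a donor site, at the end of 1 exon, to an acceptor site, at the start of the next. Genes that arose by tandem duplication lie side by side and can keep nearly the same exon sequence, so a short read can align to either copy or across both. In read-through transcription, RNA polymerase continues past the end of a gene into the next, and the splicing machinery can join exons of both. The last exon of a gene has no donor and the first exon has no acceptor, so read-through transcripts are known to join often the next-to-last exon of the upstream gene to the second exon of the downstream gene.

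The members were separated into 4 classes. Pairs counted as gene copies when their proteins were at least 30% identical over at least 50% of the shorter, or shared a symbol stem where a protein was missing. This class held 778 junctions (64.0%) in 292 pairs. Read-through to the next gene, with no same-strand gene wholly between, held 182 junctions (14.97%) in 128 pairs. Joins past at least 1 same-strand gene held 249 junctions (20.5%) in 171 pairs. Overlapping gene spans held 7 junctions in 2 pairs. All together, 593 pairs and 866 genes were joined, 415 pairs by a single junction. In 7 of the gene-copy pairs, such as the pairs of Ensembl 65 genes now both called Snx29, Rin2 or Scn8a, both genes are 1 gene in GENCODE M21.

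The sequences that carry the distinction are the bases around the joined exons, read from GENCODE M21 transcripts by transcript ID. Each shows the last 15 bases of the upstream exon in lower case and the first 15 bases of the downstream exon in capitals, 5′ to 3′. The first set shows the junction with most reads, among those at annotated exon ends, of the 6 gene-copy pairs with most reads. In each of them the upstream gene's own junction and the downstream gene's own junction have the same 30 bases with 0 mismatches.
Hba-a1 to Hba-a2: cccgtcaacttcaagCTCCTGAGCCACTGC
Hbb-bs to Hbb-bt: cctgagaacttcaggCTCCTGGGCAATATG
Tuba1a to Tuba1b: aacccacggtcatcgATGAAGTTCGCACCG
Srp54c to Srp54a: cggtgctcttagtgcAGTTGCTGCCACAAA
Acat2 to Acat3: tgtcttccagaaaagGTCTTACTGAAGTGA
Mfap1a to Mfap1b: agaagaccgagaagcGCTTGAAAAGGAGAA

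The second set shows a join between unlike neighbours beside the own junctions of the same genes. The Clk2 to Scamp3 join differed from the Clk2 junction at 15 of the 30 bases, which are all the bases in capitals, and from the Scamp3 junction at 7 bases.
Clk2 to Scamp3: tgcaaacctctgcggGACCCAGCTGTGATC
Clk2 own: tgcaaacctctgcggCGGTATCTGACCTCA
Scamp3 own: gacaatccctttcagGACCCAGCTGTGATC

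The third set shows further joins between unlike neighbours, whose values follow below. In each, the capitals begin an exon of the downstream gene.
Fabp7 to Smpdl3a: ggcaagatggtcgtgGGCAGTTTTGGCACG
Rspry1 to Arl2bp: gccttgtggacacagCTCCTCCGCCTCTGA
Hspbp1 to Ppp6r1: cgtgaggagtaccagGGCGCCATGTTTTGG
Rnf139 to Ndufb9: ttctccggctccttgGGACAAGTACCGGTA
Cdk2 to Rab5b: cggagcttgttatcgGACTGTTGAGGCCTG
Nme4 to Decr2: tgttcacatcagcagGGACAAAGTGGCCTT
Osbpl2 to Adrm1: agagtggcggaccagGATGACGACTTCAGG
Pla2g12a to Casp6: ctcagaacgtccaggGTGAAAGTAAAACAT
Rab4b to Egln2: gatgtgcagaaccagCCACCCCCATCAGTC

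The junction list held 72242374 reads in the first value and 57754886 in the second. Members held 478149 and 368120 of them, or 0.662% and 0.637%. Neural genes were detected in both libraries, with Tubb3 at 882 TPM in replicate 1 and 720 TPM in replicate 2, and Sox2 at 91.5 and 56.3 TPM. RNA of blood, with Hbb-y at 8740 and 13866 TPM, and of liver-type genes, with Afp at 306 and 169 TPM, was also present. The muscle regulator Myog was at 0.40 TPM in replicate 1 and 34.2 TPM in replicate 2.

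Reads were concentrated in few members. The median member had 20 reads in the first value and 16 in the second, against medians of 16 and 13 for unflagged junctions inside 1 gene. The 6 highest members held 73.7% of all member reads, and gene copies held 93.1%. Read-through junctions held 2.96% and joins past a gene 3.92%. At the edge of the rule, 168 members had a lower value of 5, with a median of 9 in their other value. Another 211 junctions that met the rest of the rule had a lower value of 4 and a median of 7 in their other value.

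The 2 values of a member often differed. After scaling to the total of each value, 453 of 1216 members (37.3%) were at least 2-fold apart, and the share was 31.7% over all unflagged junctions with at least 5 reads in each value and 31.4% over annotated junctions. By class the share was 38.7% for gene copies, 35.7% for read-through, 33.3% for joins past a gene and 57.1% (4 of 7) for overlapping spans. For the 3 large classes these shares lay near the background.

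**Figure D1:**
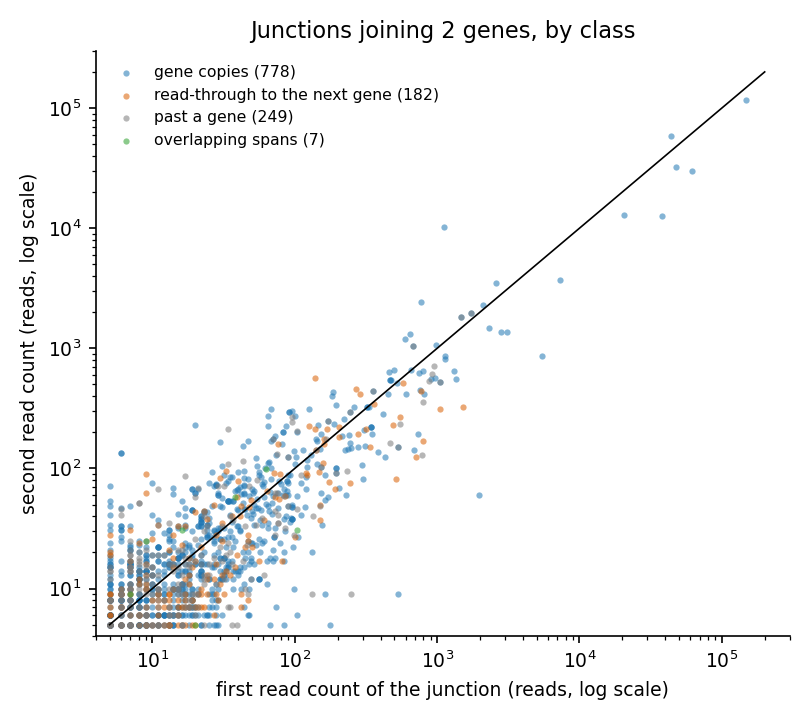
Read count of each joining junction in the first value (x axis, reads, log scale) against the second value (y axis, reads, log scale), 1 point a junction, coloured by class; the line marks equal counts. The gene copies reach 147729 and 117108 reads, while the highest first value of a read-through junction was 1510 reads.

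Gene copies with abundant products gave the highest counts. Hba-a1 and Hba-a2 encode the adult alpha chains of haemoglobin, and their proteins were 100% identical. A junction from exon 2 of Hba-a1 to exon 3 of Hba-a2 had 147729 reads in the first value and 117108 in the second. The own junction of Hba-a2 at the same acceptor had 147625 and 117083 reads, a ratio of joining to own reads of 1.00. The own junction of Hba-a1 at the same donor had 175368 and 139544 reads.

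The same arrangement recurred in the beta globin cluster. The join from exon 2 of Hbb-bs to exon 3 of Hbb-bt, a pair of adult beta chain genes, had 61939 and 30149 reads. The own Hbb-bt junction at that acceptor had 61957 and 30163 reads, and the own Hbb-bs junction at that donor had 89982 and 36752 reads. All 10 pairs that held a globin held 2 globins, with 70 junctions and 514882 reads, and all were gene copies. They included joins between embryonic and adult chains with few reads, such as Hbb-bh1 to Hbb-bs with 18 and 23 reads. The number of blood cells and the RNA per cell cannot be told apart in these bulk libraries, and the part of blood RNA in the globin counts was not tested.

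Tuba1a and Tuba1b encode alpha tubulins, the subunits of microtubules that growing neurons use for their processes. Their join from exon 2 to exon 3 had 47873 and 32186 reads, against 48728 and 32511 for the own junction of Tuba1b and 64501 and 47425 for that of Tuba1a. A join of their first to their second exons had 1126 reads in the first value and 10284 in the second, so the values stood far apart there. Tubb2b to Tubb2a, a beta tubulin pair with proteins 99.6% identical, had 2095 and 2306 reads at its highest junction, against 1935 and 1755 for the own junction of Tubb2a and 27247 and 17489 for that of Tubb2b.

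Several pairs were joined at many of their exons. Srp54c and Srp54a encode the signal recognition particle subunit that binds signal peptides, with proteins 99.2% identical. Of their 17 joining junctions, all at annotated exon ends, 1 had 243 and 295 reads, and both own junctions at its ends also had 243 and 295 reads. Another had 534 and 152 reads, against 535 and 153 at the Srp54c donor and 534 and 152 at the Srp54a acceptor.

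Mfap1a and Mfap1b, which encode a spliceosome-associated protein, were joined by 7 junctions. The highest had 5453 and 871 reads, against 5518 and 877 for the own Mfap1a junction and 5467 and 878 for the own Mfap1b junction. Acat2 to Acat3, enzymes that condense acetyl-CoA, had 9 junctions. There the level of the genes differed: Acat2 had 148 and 138 TPM in replicates 1 and 2, and Acat3 had 0.71 and 0.86 TPM. The join of Acat2 exon 1 to Acat3 exon 2 had 494 and 661 reads, exactly the counts of the own Acat2 junction. The own Acat3 junction there had 2 and 3 reads, but own Acat3 junctions varied by exon. At the highest join, with 2801 and 1357 reads, it had 2386 and 989 reads. At the next highest, with 2327 and 1485 reads, it had 9 and 11.

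Scd3 to Scd2, stearoyl-CoA desaturases that add the double bond of oleate, stood out at the donor. Their top join had 7303 and 3714 reads, against 11 and 15 reads for the own Scd3 junction at the same donor and 9265 and 4932 for the own Scd2 junction. Its 30 bases around the joined exons matched the Scd2 junction with 0 mismatches and the Scd3 junction with 1. Scd3 had 0.12 and 0.11 TPM, and Scd2 had 276 and 301 TPM. Ddx19b to Ddx19a, RNA helicases of messenger RNA export, had 3089 and 1370 reads at their top join, against 3091 and 1376 for the own Ddx19a junction and 1393 and 723 for the own Ddx19b junction.

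Myl12a to Myl12b, regulatory light chains of nonmuscle myosin, had 2611 and 3522 reads at their top join, against 2919 and 2169 for the own Myl12b junction and 4635 and 5676 for the own Myl12a junction. Not every gene-copy pair had such own junctions. Cbx3-ps2 to Cbx3-ps5, a pair of pseudogenes, had 450 and 149 reads over 2 junctions with neither at annotated ends on both sides. Mall to Mal, membrane proteins 40.8% identical, had 48 and 10 reads at 1 unannotated junction, a log2 ratio of -1.94 that was the lowest among gene-copy pairs with at least 50 reads.

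Over the whole class, 549 of 778 gene-copy junctions had both ends at annotated exon ends. At these, the median ratio of joining reads to the own reads of the downstream gene was 0.966, and 29.3% of those with an own junction lay between 0.9 and 1.1. Against the own reads of the upstream gene the median ratio was 0.806, and 153 junctions lay in that window. In 143 of the 549 (26.0%), both values lay within 2% of the values of an own junction at 1 of the ends.

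**Figure D2:**
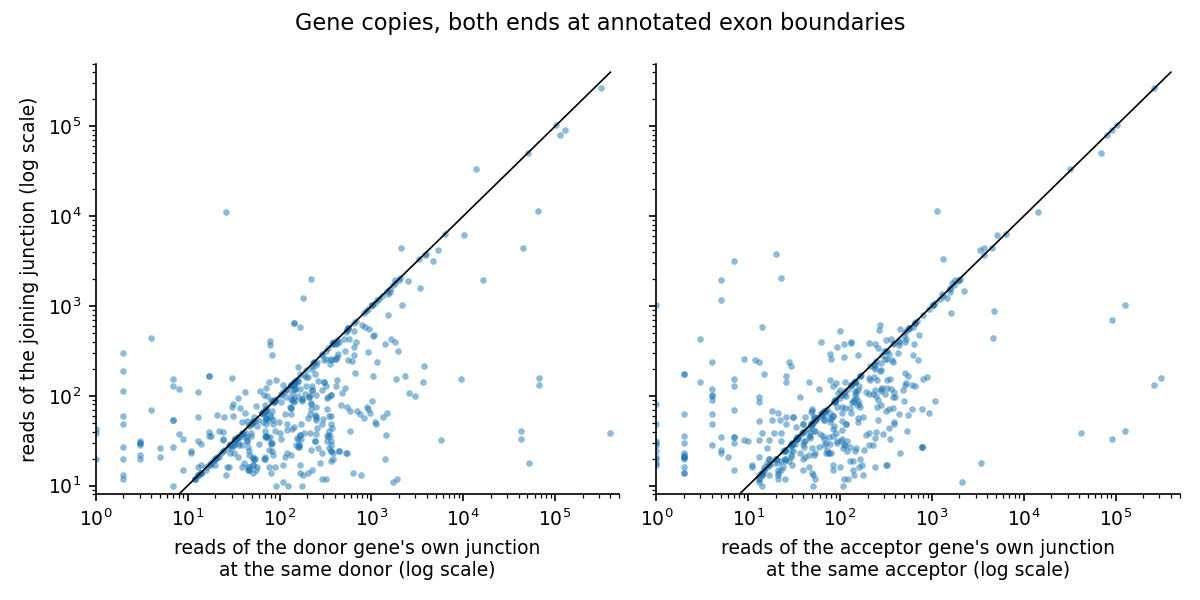
Reads of each gene-copy joining junction at annotated exon ends (y axis, both values summed, log scale) against reads of the upstream gene's own junction at the same donor (left) and the downstream gene's own junction at the same acceptor (right, log scale); the lines mark equal counts. Many points lie on the lines, with median ratios of 0.806 on the left and 0.966 on the right.

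Equal pairs of counts recurred between different junctions of 1 chromosome. Among members with at least 500 reads, 15 of 91 (16.5%) shared both values exactly with another junction on their chromosome. The share was 0.533% of 751 unflagged junctions inside 1 gene and 0.574% of 54337 annotated junctions of that depth. It was 12 of 63 for gene copies, 1 of 14 for read-through and 2 of 14 for joins past a gene. Among junctions with at least 50 reads, the contrast was smaller, at 38.6% of members, 24.99% of unflagged junctions inside 1 gene and 9.33% of annotated junctions. The homeobox gene copies Duxbl1, Duxbl2 and Duxbl3 gave 343 and 220 reads at each of their joins of the same exon pair.

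The joined bases were compared with transcripts of the same genes over 60 bases, 30 on each side. Of 669 gene-copy junctions with a sequence, 424 (63.4%) were found with 0 mismatches in a transcript of 1 of the joined genes. A further 48 had 1 or 2 mismatches and 171 had at least 10. Among those with both ends at annotated exon ends, 413 of 504 had 0 mismatches and 24 had at least 10.

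**Figure D3:**
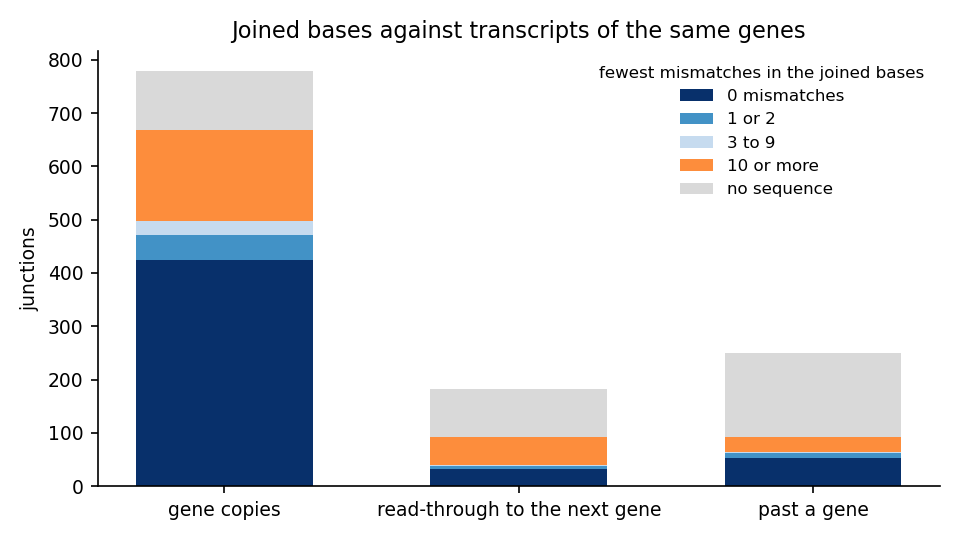
Number of junctions (y axis) in the 3 large classes, divided by the fewest mismatches of their 60 joined bases in any transcript of the joined genes, with junctions lacking a sequence in grey. The dark bar of 0 mismatches holds 424 gene-copy junctions, 32 read-through junctions and 53 joins past a gene.

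A second kind of member linked copies at positions with no annotated exon end. Tuba1a to Tuba1b had 62 junctions, only 3 of them at annotated exon ends on both sides, and Hba-a1 to Hba-a2 had 41, with 2 such. The lengths of the junctions varied little within a pair, at 18212 to 20255 bases in the tubulin pair and 12446 to 13009 bases in the alpha globin pair. Tubb2b to Tubb2a had 31 junctions with lengths of 52835 to 53519 bases. The 229 gene-copy junctions that lacked an annotated exon end on at least 1 side held 13600 reads in all, with a median of 28 a junction. Of the 229, 173 lacked it on both sides and 56 on 1. Of these reads 5293 were in 59 junctions of Tuba1a to Tuba1b, whose highest had 1952 reads in the first value and 60 in the second. The highest such junction of Hba-a1 to Hba-a2 had 133 and 20 reads, with its donor at an annotated exon end.

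The name of each junction also holds a flag C, whose meaning is not given in the sources used here. Annotated junctions had C=1 in 99.7% of cases and unflagged junctions above the read minimum in 77.2%. Gene-copy junctions at annotated exon ends had C=1 in 546 of 549 cases, and the other gene-copy junctions in 72 of 229.

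Over the whole table, 866 of 37310 genes (2.32%) were in a joined pair. Of the 11 globins listed, 9 were joined. Zinc finger genes of the Zfp series, mostly repressors that bind DNA, are the largest family listed, and 76 of 406 (18.7%) were joined. In 80 pairs at least 1 gene was a Zfp gene, and in 40 pairs both were, with 58 junctions and 5027 reads. Of 68 serpins, a family of protease inhibitors, 8 (11.8%) were joined, of 54 keratins 6 (11.1%), of 65 histone genes 5 (7.69%) and of 379 solute carriers 13 (3.43%). Of 296 genes whose symbol starts with Rpl or Rps, pseudogenes included, 4 (1.35%) were joined, and no pair held 2 such genes. Of 22 imprinted genes 2 (9.09%) were joined. No pair held a Hox gene, a clustered protocadherin, a Tceal or Bex gene or a Ugt1a gene. The table held 45, 24, 12 and 9 genes of these families, so a count of 0 lies near the share of 2.32% over all genes. The rule also leaves out junctions whose ends share a gene, so joins among genes with overlapping spans can be missed.

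A pair of muscle myosin genes gave a large difference between the values. Myh3 to Myh4, embryonic and fast heavy chains, had 6 reads in the first value and 135 in the second, a log2 ratio of 4.81 after scaling. Myh3 had 0.71 TPM in replicate 1 and 16.9 TPM in replicate 2, and Myh4 was listed at 0 in replicate 1 and had 0.11 TPM in replicate 2. Myh7 to Myh6, the cardiac heavy chains, were joined by 15 junctions with 1763 reads in the first value and 2262 in the second. The part of muscle RNA in these counts was not tested.

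Read-through to the next gene was a mixed class. In 16 of its 128 pairs, with 58 junctions and 17889 reads, the transcripts or joined bases of the genes were alike. Alike meant transcripts at least 80% identical over at least 50% of the shorter, or at most 2 mismatches in the 60 joined bases. In none of these pairs did both genes have a protein sequence, so no protein comparison could be made. A pseudogene was in 15 of the 16. The pair with most reads, 5830417I10Rik to Gon4l, joins an unprocessed pseudogene to a regulator of transcription with 29 junctions. Its highest junction had 1834 reads, and 19 of its 29 had joined bases with 0 mismatches in a transcript of the pair. Ppp1r10 to Gm8801 and Usp9x to Gm14536 likewise join a gene to a pseudogene, with 727 and 283 reads and with 138 and 567 reads. Usp9x to Gm14536 had the highest log2 ratio of the read-through pairs with at least 50 reads, 2.36, and Dennd1a to Strbp, with 47 and 8 reads, the lowest, -2.23. Ndrg3 to Gm14278 had 460 and 757 reads over 4 junctions. A further 17 pairs with 25 junctions had a gene with no current sequence and could not be compared.

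The remaining 95 pairs, with 99 junctions and 3798 reads, joined unlike genes. Of these junctions, 26 had both ends at annotated exon ends, 19 only the acceptor, 7 only the donor and 47 neither. The 26 with both ends annotated formed 26 pairs, were chosen for description after their values were seen, and had 5 to 77 reads in the first value and 5 to 56 in the second. All 26 had C=1. Of the 24 with a sequence, 23 had at least 10 mismatches in every transcript of the joined genes. The exception was Med25 to Ptov1, with 6 mismatches, a pair that shares a protein domain. Pairs with a junction of at most 2 mismatches had been set aside as alike. A count above 2 was therefore fixed by the choice of this set and supports nothing.

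In 20 of the 26 (76.9%) the junction left an exon that was next-to-last in at least 1 annotated transcript of the upstream gene. It entered an exon that was second in at least 1 transcript of the downstream gene. A short transcript model can meet this count, as Prelid3b to Atp5e did with a donor in exon 1 of the Prelid3b transcript used for the joined bases. The share of all annotated exon ends that would meet it is not given here. By the same count the acceptor was a second exon in 24 of the 26. Among gene copies at annotated exon ends, next-to-last to second joins made up 47 of 549 (8.56%). Gene-copy joins can follow the exon order of 1 gene, as from exon 2 of Hba-a1 to exon 3 of Hba-a2. The 2 shares are therefore not a like comparison. Exon order was not used to choose the junctions.

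Clk2, a kinase of splicing factors, was joined to Scamp3, a membrane protein of secretory vesicles, with 35 reads in the first value and 13 in the second. The gap between the genes is 551 bases, and the junction spans chr3:88979658-88981911 in mm9. The join took 2.11% of the junction reads leaving the Clk2 donor (exact 95% binomial interval 1.56 to 2.78%, counting error only). It made up 4.04% of the reads entering the Scamp3 acceptor.

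Fabp7, the brain fatty acid binding protein of radial glia, was joined to Smpdl3a, a phosphodiesterase, with 22 reads in each value. Fabp7 was abundant at 565 and 475 TPM, while Smpdl3a had 5.30 and 10.6 TPM. The join took 0.235% of the reads leaving its donor (0.171 to 0.316%) and made up 14.0% of the reads entering its acceptor.

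Hspbp1, a cochaperone of Hsp70, was joined to Ppp6r1, a regulatory subunit of protein phosphatase 6, with 27 and 6 reads and a donor share of 1.74% (1.20 to 2.44%). Rspry1 was joined to Arl2bp, a partner of the small GTPase Arl2, with 19 and 15 reads and a donor share of 2.65% (1.84 to 3.68%). Cdk2, a kinase of the cell cycle, was joined to Rab5b, a GTPase of early endosomes, with 15 and 6 reads and a donor share of 0.800% (0.496 to 1.22%). In all 3 the downstream exon was the second of its gene.

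Other pairs involved metabolic, proteasomal and apoptotic genes. Nme4, a mitochondrial nucleoside diphosphate kinase, was joined to Decr2, a peroxisomal reductase, with 8 and 12 reads and a share of 1.47%. Osbpl2, an oxysterol-binding protein, was joined to Adrm1, a ubiquitin receptor of the proteasome, with 13 and 7 reads and a share of 1.93%. Pla2g12a, a phospholipase, was joined to Casp6, a caspase, with 12 and 7 reads and a share of 5.60%. Rab4b was joined to Egln2, a prolyl hydroxylase of the hypoxia response, with 9 and 7 reads and a share of 2.04%.

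The share leaving the donor was under 3% in 15 of the 26 pairs, with a median of 2.07%. Some donors with few reads had far higher shares. The join of Eef1akmt3 to Tsfm, a mitochondrial elongation factor, took 23 of 25 reads at the donor, or 92.0% (74.0 to 99.0%). Eef1akmt3 had 0.23 and 0.37 TPM and Tsfm had 56.5 and 42.8 TPM. Ripply2, a transcriptional repressor that acts in somite formation, had 0.05 and 0.21 TPM. Its join to Cyb5r4 with 19 and 5 reads took 68.6% of the donor's reads. At the acceptor the median share was 4.14%, and 19 of the 26 were under 10%.

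**Figure D4:**
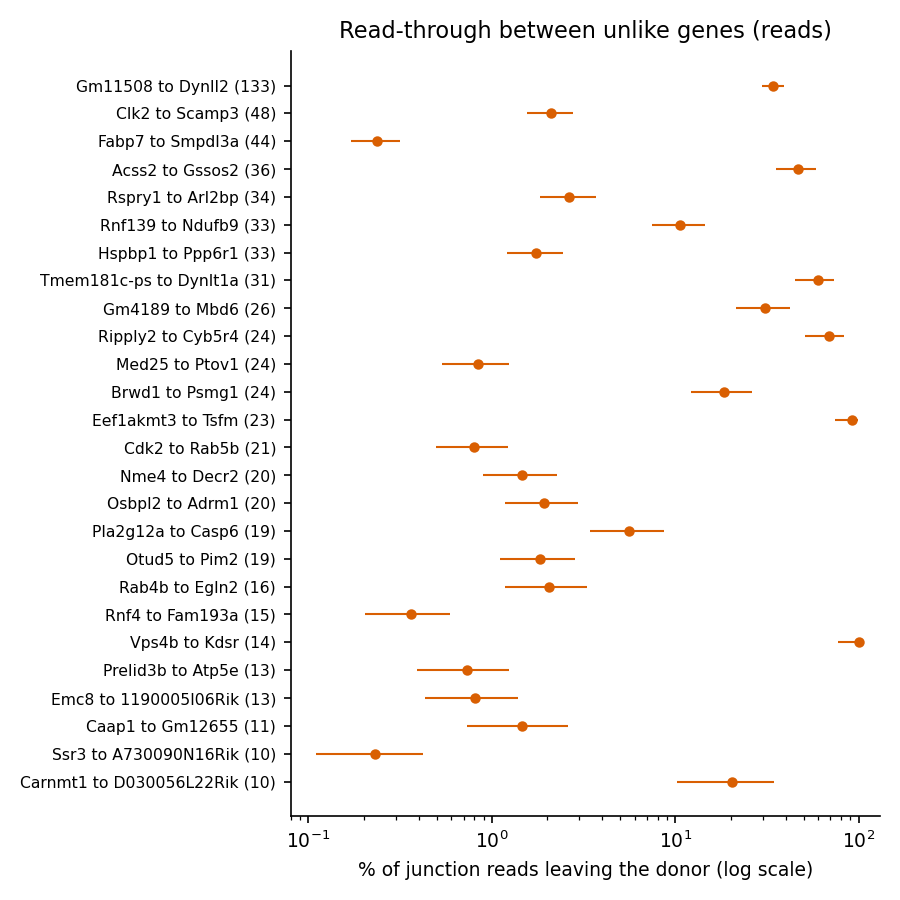
Share of the junction reads leaving the donor that took the joining junction (x axis, percent, log scale) for the 26 read-through pairs of unlike genes at annotated exon ends, with exact 95% binomial intervals and the joining reads in brackets. Fabp7 to Smpdl3a lies at 0.235% and Clk2 to Scamp3 at 2.11%, while Vps4b to Kdsr, with 14 reads, lies at 100%.

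Set against the own junctions of the same genes, most joins had few reads. The median ratio of joining reads to the own reads was 0.0421 at the acceptor and 0.0214 at the donor, and no pair had a ratio between 0.9 and 1.1. At the acceptor no join exceeded the own junction of the 23 pairs that had one. At the donor 6 of 25 joins did, each beside an own junction with few reads, as in Gm11508 to Dynll2 with 77 and 56 joining reads against 0 and 1 own reads. The others were Acss2 to Gssos2 with 18 and 18 against 13 and 6, Tmem181c-ps to Dynlt1a with 18 and 13 against 7 and 13, and Ripply2 to Cyb5r4 with 19 and 5 against 3 and 3. Eef1akmt3 to Tsfm had 15 and 8 against 0 and 1, and Carnmt1 to D030056L22Rik had 5 and 5 against 2 and 1.

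Over all 26 pairs the median gap between the joined genes was 5504.5 bases, with a largest gap of 122151 bases in Tmem181c-ps to Dynlt1a, and same-strand contigs deposited by the authors covered a median of 82.1% of the gap. The 20 pairs of protein-coding genes had a median gap of 3212.5 bases and a median coverage of 78.0%. A comparison with other neighbours was possible for a smaller set, with shorter gaps than all 26. In it, 15 pairs were adjacent protein-coding genes with a mean RPKM of at least 1 each, and their median gap was 1670 bases. The other 3508 adjacent pairs of that kind had a median gap of 19250 bases. These others can include pairs joined by members of other kinds, such as gene copies or junctions with only the acceptor annotated. The gap was under 10 kb in 13 of the 15 joined pairs (86.7%) and in 1239 of the other pairs (35.3%). Deposited contigs on the same strand covered a median of 94.4% of the gap in the joined pairs and 19.4% in the others. Coverage was not complete in all, since none of the 1131-base gap of Brwd1 to Psmg1 was covered. The joined pairs and the others were not matched for gap length or expression. The difference in coverage therefore cannot be told apart from the difference in gap length.

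**Figure D5:**
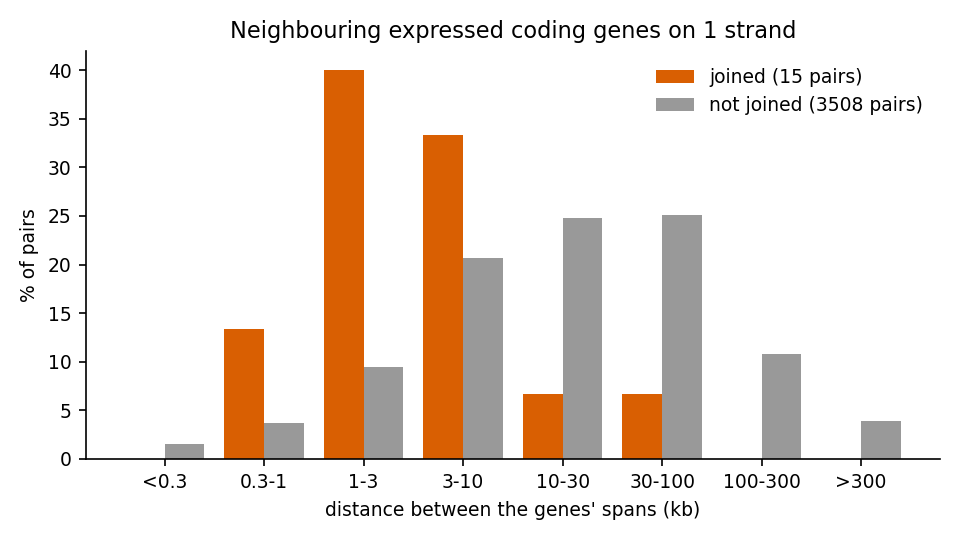
Percent of adjacent same-strand protein-coding gene pairs with a mean RPKM of at least 1 (y axis) by the distance between their spans (x axis, kb), for the 15 pairs joined by a read-through junction at annotated exon ends (orange) and the 3508 other pairs (grey). The grey pairs, labelled not joined, can include pairs joined by members of other kinds. Under 10 kb lie 86.7% of the joined pairs and 35.3% of the others.

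Where only the acceptor was annotated, 18 of the 19 junctions entered an exon that was second in at least 1 transcript of the downstream gene. The median donor share was 96.0% and the median acceptor share 15.2%. 2700033N17Rik to Meis2, a homeobox regulator of patterning, had 40 and 78 reads over a gap between the genes of 378 bases. Raver1 to Fdx1l had 47 and 25 reads, and Iqcj to Schip1 had 28 and 9 reads.

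In 7 read-through junctions the joined bases stood with 0 mismatches in a transcript that GENCODE M21 assigns to a gene of another name. Iqcj to Schip1 was found in Iqschfp, Raver1 to Fdx1l in Gm38431 and Soga3 to 9330159F19Rik in Gm49353. Rnf139, a ubiquitin ligase, joined to Ndufb9, a subunit of respiratory complex I, with 24 and 9 reads was found in Gm49356. Emc8 to 1190005I06Rik was found in Gm27021 and Tia1 to C87436 in Gm44790. H2-T10 to H2-T-ps, of the major histocompatibility complex, was found in H2-T22, a gene of the same family.

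Of the 47 read-through junctions of unlike genes with neither end annotated, 38 had C=0, over a median distance between the genes of 53714 bases. Same-strand contigs covered a median of 8.27% of that distance, against 82.1% for the pairs of unlike genes at annotated exon ends. These junctions are in the read-through class by gene order alone, and transcription across the gap was not tested. Zc3h12b to Msn had 192 and 67 reads over a gap of 163549 bases, 9.44% of it covered. The 2 junctions of Rnf216 to Actb, the gene of beta actin, had 33 and 95 reads and 30 and 84 reads. The gap of that pair was 84138 bases, 7.83% of it covered. The joins of Zc3h12b to Msn and Rnf216 to Actb held 100% of the reads at their donors. Of the 38 junctions with C=0, 1 stood in an assembled transcript.

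Joins past a gene divided in the same way. Alike transcripts or joined bases were found in 51 pairs with 90 junctions, and 40 pairs with 75 junctions and 22429 reads had a gene without a current sequence. The pair with most reads joins an Ensembl 65 gene without a current name, ENSMUSG00000021020, to Srp54a by 15 junctions with 6830 and 7140 reads. Its values matched those of Srp54c to Srp54a, as at the join with 1049 and 529 reads in both pairs. Gm13022 to Atpif1, an inhibitor of mitochondrial ATP synthase, had 797 and 356 reads at 1 junction, and the pair's transcripts were 91.1% identical. Maged2 to Tro, of the MAGE family, had 103 and 279 reads over 2 junctions. Gm6325 to Fnd3c2 had 34 and 211 reads, a log2 ratio of 2.96 that was the highest among pairs past a gene with at least 50 reads. C4a to C4b, components of complement, had 5 junctions with 63 and 55 reads, all 5 with 0 mismatches.

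The other 80 pairs past a gene, with 84 junctions, joined unlike genes over a median gap of 143864 bases, and only 2 junctions had both ends annotated. Neither end was annotated and C was 0 in 56 of the 84. Naglu to Wnk4, a lysosomal enzyme and a kinase of salt transport, had 548 and 236 reads with 8 genes between. Srebf2 to Smdt1 had 463 and 163 reads, and Malat1, a nuclear noncoding RNA, to Pcnx3 had 248 and 9 reads, a log2 ratio of -4.46.

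The class of overlapping spans held 2 pairs. 2610005L07Rik to 6820431F20Rik, with transcripts 99.8% identical over only 19.8% of the shorter, was joined by 5 junctions, none at annotated exon ends, with lengths of 127270 to 127298 bases and 133 and 222 reads in all. Apbb3 to Sra1 had 124 and 36 reads over 2 junctions.

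Some members stood in the transcript models that the authors assembled. An assembled transcript held the intron in 18 of 1216 members (1.48%). The share over all unflagged junctions was not computed, so 1.48% cannot be called low or high. Of the 18, 9 were read-through junctions, 6 gene copies, 2 joins past a gene and 1 an overlap. None of the 26 read-through junctions of unlike genes at annotated ends was among them. Gemin7, of the complex that assembles spliceosomal particles, to Ppp1r37 was an assembled read-through with 13 and 5 reads and RPKM values of 1.43 and 0.742. Soga3 to 9330159F19Rik was another, with 3.11 and 1.46 RPKM at its higher junction.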

How the data were processed

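Polyadenylated RNA of 2 libraries was analysed. The authors deposited a pooled mm9 junction list with a read count per junction and value, a contig list with a coverage signal, Ensembl 65 gene and exon tables with 2 RPKM values, assembled (Cufflinks) models, per the file headers, and mm10 gene tables of TPM and expected counts for each library. No source used here names the aligner or the counting tool. Expected counts over Ensembl genes summed to 120461126 in replicate 1 and 108007021 in replicate 2. Depth limits precision, and intervals cover counting error only. No column of another sample was present.

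Each gene stood in the mm9 table on 2 rows (74620), read once (37310). Where an end lay in several genes, 1 was chosen by annotated splice site, exon, RPKM and span. Symbols came from GENCODE M21 by gene ID (762 of 866 genes) or transcript ID (57), and 47 matched none. Proteins were translated from GENCODE M21 and compared with BLAST+ 2.17.0+, since no RefSeq protein table was used here. The junction coordinates are mm9; bases came from mm10 transcripts with the same inner exon lengths. Scripts used Python 3.11.15, pandas 2.3.3 and SciPy 1.17.1, and were tested on simulated data. Shares use all listed junctions at a site. The members and the gene lists were chosen with earlier results of these data known. Named pairs were, per class, the 10 with most reads, the 5 with highest donor share among donors with at least 50 reads, the 5 with most junctions and the extremes of the ratio. Other pairs named were chosen after their values were seen.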

Additional observations from a re-analysis of the deposited data

How the results depend on the processing

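With a minimum of 10 reads in each value, 708 junctions in 343 pairs joined 2 genes: 495 gene copies, 92 read-through junctions, 117 joins past a gene and 4 overlaps. With a minimum of 3 reads, read-through held 305, joins past a gene 384 and overlaps 17. With both ends at annotated exon ends, there were 753 junctions in 385 pairs, with 81 read-through junctions, 122 joins past a gene and 1 overlap. Requiring the minimum in only 1 of the 2 values, the second or the first, gave 1855 to 3781 junctions and 909 to 1599 pairs, with 1152 to 1899 gene copies, 302 to 679 read-through junctions, 387 to 1136 joins past a gene and 14 to 67 overlaps. By symbol stem alone the classes held 466 gene copies, 290 read-through junctions and 452 joins past a gene. With protein-coding genes alone counted as lying between, read-through held 283 and joins past a gene 148. With only junctions of at least 5 reads in each value at a donor, median donor shares were 44.2% for gene copies, 50% for read-through and 48.5% for joins past a gene, against 40.1%, 49.4% and 41.5% over all listed junctions. With 1 value alone the gene-copy median was 40.3 to 40.9%. A similarity rule chosen after seeing the data, which also counts transcripts at least 80% identical as copies, gave 867 gene copies, 158 read-through junctions and 184 joins past a gene. Of 57 recomputed values, 23 stayed near the main value, for counts within 1.5 times. No paired analysis was possible because the libraries form 1 group. The cause of these differences was not tested. Junctions near the minimum of 5 reads rest on few reads.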
